A study of Mus musculus with 2 samples.

Results

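The heat shock proteins and their partner chaperones of the mouse ovary were taken as 34 named genes, and 33 of them had a row in both gene tables out of 43346 mouse gene rows. Rows were matched by symbol. They were ordered by where their proteins work: 15 cytosolic genes, 4 mitochondrial, 5 of the endoplasmic reticulum, 7 small heat shock proteins and 2 heat shock factors. The remaining gene, Hspa14, has an identifier that the tables do not list, and is described from its transcripts below. RNA came from the ovary of adult C57BL/6J females, a standard inbred strain, with no treatment or engineered allele in the labels. There was 1 group of 2 libraries, replicate 1 and replicate 2, both from mice of 8 weeks. The labels speak of littermates and of biological replicates, yet name 1 donor record for both libraries. Whole-ovary RNA was polyadenylated, longer than 200 nucleotides and free of ribosomal RNA, and was read in stranded pairs of 76 bases.

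Chaperones bind unfolded or partly folded proteins and let them fold, assemble or be degraded. Hsp70 proteins hold short greasy stretches in an ATP-driven cycle set by J-domain proteins and nucleotide exchange factors, and Hsp90 proteins finish the folding of clients such as steroid receptors and kinases. Heat shock factors turn on the inducible members through the heat shock element of their promoters, while the unfolded protein response turns on those of the endoplasmic reticulum. The ovary makes large amounts of secreted hormone and matrix, which fold in that compartment.

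The 2 libraries held 41124064 and 34930872 gene counts, and 3 counts, the most that a count of 0 allows, are 0.0730 and 0.0859 CPM (counts scaled by the library total). Ovarian identity was checked on marker genes: 10 of 10 follicle and steroid cell markers reached 1 TPM (a transcript level corrected for length and library total) in both libraries, with summed TPM of 11540 and 10085, and so did 8 of 8 oocyte markers. Spike-in RNA made up 0.764% of counts in replicate 1 and 0.986% in replicate 2. Scaling to the spike-ins in place of the bulk of the genes therefore moves every log2 ratio of replicate 2 over replicate 1 by -0.43. The implied fragment length was 228 and 206 bases. On scaled counts red blood cell markers were higher in replicate 2 in 5 of 5 tested, with summed TPM of 1086 and 2254, and immediate early genes in 10 of 12, with 604 and 716. Adipocyte markers were higher in 6 of 8 and lower in 1, with sums of 3560 and 4446. Oocyte markers were higher in none and lower in 4 of 8, with 547 and 488. The 4 oviduct markers were all detected, with 838 and 762. By the same test, described below, 29.0% of all genes were called higher and 26.8% lower. On the spike-in scale 4 red blood cell markers were higher and 0 lower, while 3 immediate early genes were higher and 6 lower. Adipocyte markers gave 1 higher and 6 lower on that scale, and oocyte markers 0 and 6. The part of these differences in the results that follow was not tested. In whole-tissue RNA, fewer cells of a type and less RNA per cell cannot be told apart.

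Chaperone genes were well expressed. Of the 33 measured, 32 reached 1 TPM in both libraries, and Hspb3 had no counts in either. Of all protein-coding genes, 62.0% reached that level in both. The median over members of the mean TPM was 39.8, against 4.45 over 21474 protein-coding genes, a figure that includes those not detected. Together the members made 6237 TPM in replicate 1 and 6961 in replicate 2, which is 0.624% and 0.696% of the total. A few genes held most of it. Hspa8 made 48.6% and 35.3% of the members' sum and Hspa5 16.6% and 35.6%. In both libraries the next places went to Hspb1 and Hsp90ab1.

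**Figure D1:**
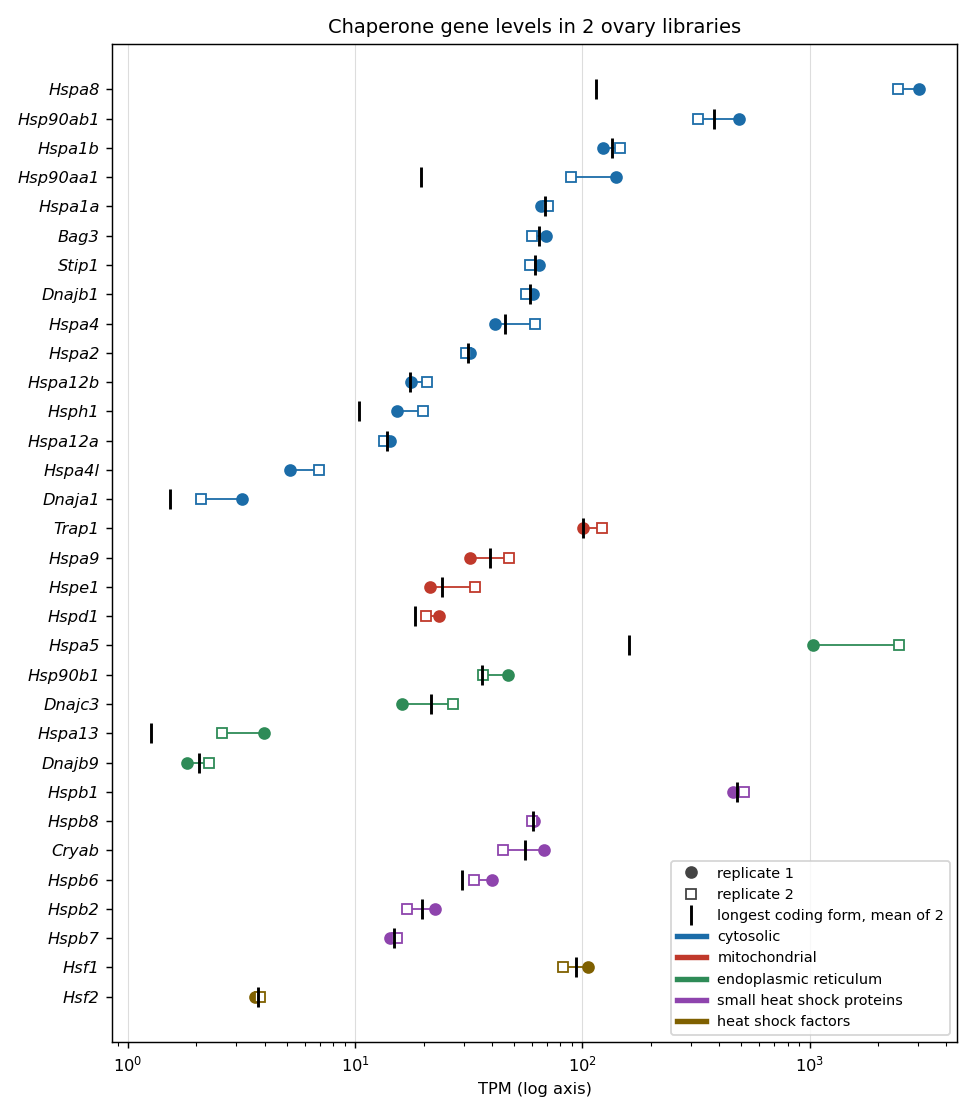
TPM of the 32 chaperone genes with counts, on a log axis, grouped by compartment and sorted by mean. Filled circles are replicate 1, open squares replicate 2, and the black bar is the mean TPM of the annotated forms with the longest coding sequence (not given for Hspa4l). Hspa8 at 3033 and 2454 and Hspa5 at 1038 and 2481 lead, and for both the bar lies far to the left, near 114 and 161.

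Gene-level TPM and the level of the full coding message parted strongly in 3 of the most abundant members. For each gene the annotated transcripts with its longest coding sequence were summed. By that measure the members made 2267 and 2094 TPM, and the order changed. Hspb1 came first with a mean of 477 TPM, then Hsp90ab1 with 379, Hspa5 with 161, Hspa1b with 134 and Hspa8 with 114. Hsp90aa1 moved from the 6th place to the 22nd. Of 31 members with a mean of 1 TPM or more, 4 had under 50% of their TPM in those forms, namely Hspa8, Hsp90aa1, Hspa5 and Hspa13. The same was found in 33.6% of 13520 protein-coding genes at that level. How reads were divided among overlapping forms was set by the authors' estimation and was not tested here.

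The 2 libraries were compared gene by gene with a two-sided exact binomial test on scaled counts, adjusted over 15939 genes. It sets the reads of these 2 libraries against each other and not conditions, and the spread it meets may be technical. Of 32 members tested, 13 were higher in replicate 2 and 13 lower, where 29.0% of all genes tested were called higher and 26.8% lower. Calls become more common with depth. Where the mean count was 1000 or more, 40.5% of 6915 were higher and 33.6% lower, beside 11 and 10 of the 25 members that deep. The members' shares thus lay near those of other deeply read genes. None of the 32 was over 2-fold apart on scaled counts, where 3.97% of all genes were. Their median log2 ratio was 0.0064, and that of all genes tested -0.0045. On the spike-in scale 5 members were higher and 25 lower, with a median of -0.43. Hspa4, Hspa9, Hspe1, Hspa5 and Dnajc3 were the members still called higher on that scale.

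**Figure D2:**
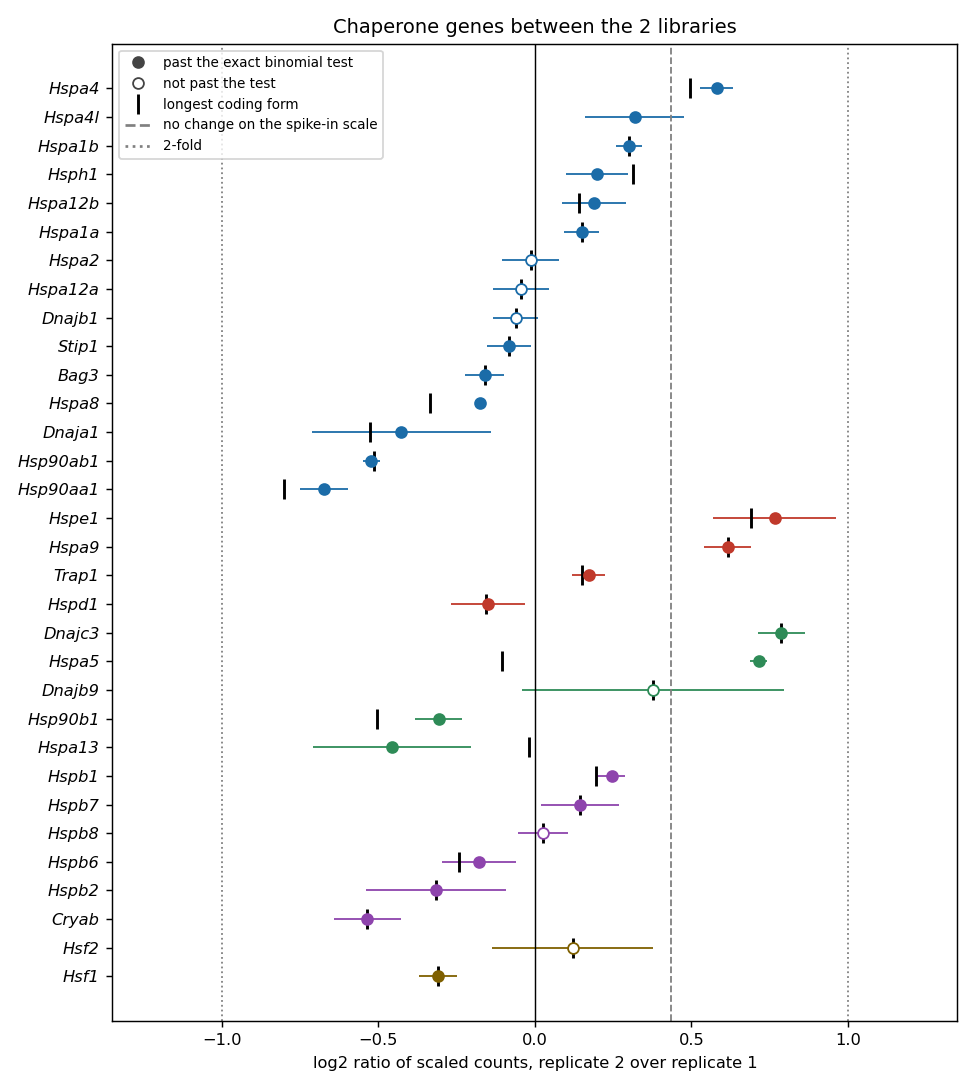
Log2 ratio of scaled counts, replicate 2 over replicate 1, for the 32 members tested, by compartment (colours as for the levels). Filled points passed the exact binomial test, bars are 95% counting intervals, black bars mark the longest coding forms, and the dashed line at 0.43 is where no change would lie on the spike-in scale. All points lie within the dotted 2-fold lines; Hspa5 stands at 0.72 while its coding form stands at -0.11.

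Among the cytosolic chaperones, 6 of 15 were higher in replicate 2, 6 lower and 3 not called, with a median of 58.6 TPM. The shares over all genes tested were 29.0% higher and 26.8% lower. On the spike-in scale 1 of the 15 was higher and 13 lower. Hspa8, the constitutive Hsp70 of the cytosol that also strips clathrin from vesicles, stood at 3033 TPM in replicate 1 and 2454 in replicate 2. It was the 27th most abundant protein-coding gene, and lies on chromosome 9 at 40800984 to 40810087. Its counts were lower in replicate 2, with a log2 ratio of -0.17 ± 0.0097 (counting SE; adjusted p = 1.25e-70, exact binomial test). A difference that small is common: 60.3% of all genes tested were at least as far apart.

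Most Hspa8 reads were assigned to short forms that carry no coding sequence. A processed transcript of 727 bases and 4 exons held 62.0% of the gene's TPM in replicate 1 and 39.1% in replicate 2. A second, of 606 bases, held 27.1% and 38.2%. A retained-intron form of 1152 bases held 4.67% and 17.5%. All 3 lie within the span of the coding form, and their differences ran in opposite directions. Counts of the 727-base form were 27746 and 12322, a log2 ratio of -0.87, while those of the retained-intron form were 3872 and 9995, a log2 ratio of 1.67. The coding form of 2394 bases and 9 exons held 8292 and 5340 counts, or 15.8% and 14.1% of the gene's counts, and 130 and 99.2 TPM. Its own log2 ratio was -0.34, which is lower in replicate 2 by the same test (adjusted p = 1.5e-39, exact binomial). A further coding form, with 1881 of the 1938 coding bases, held 2052 counts in replicate 1 and 0 in replicate 2. With all protein-coding forms together, a sum added after the data were seen, the gene had 10346 and 5342 coding counts and a log2 ratio of -0.65 ± 0.024 (counting SE).

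The inducible Hsp70 genes Hspa1a and Hspa1b, which are near silent in many unstressed tissues and rise within minutes of stress, were plainly expressed here. Hspa1b stood at 123 and 146 TPM and Hspa1a at 65.8 and 70.8, so both libraries ranked Hspa1b above Hspa1a. Each was higher in replicate 2 on scaled counts, with log2 ratios of 0.30 and 0.15, and each lay below 0 on the spike-in scale, at -0.13 and -0.29. Immediate early genes, which also answer to handling and stress, were higher in 10 of 12 on scaled counts and in 3 of 12 on the spike-in scale, where 6 were lower. Their part in this difference was not tested. Hspa1a and Hspa1b are near-identical copies on the same strand of chromosome 17, with starts 12918 bases apart, so the division of reads between them is uncertain. A gene annotated on the opposite strand over 75.0% of Hspa1a held only 1 and 9 counts. The summed counts of Hspa1a and Hspa1b were 14666 and 14149, a log2 ratio of 0.25 ± 0.017 (counting SE).

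The likeness of the pair extends to the promoters. In RefSeq windows of 300 bases (build GRCm38.p6, 250 before the start and 50 after), Hspa1a and Hspa1b differed at 4 positions and were 98.7% identical. The 150 bases before each start are shown because the pair shares a 2-unit heat shock element there. The capitals mark its units, and its first base is at -104 from the start in both. Both stretches are read on the minus strand, from chr17:34972157-34972306 for Hspa1a and chr17:34959239-34959388 for Hspa1b, and they differ at 1 base.
Hspa1a: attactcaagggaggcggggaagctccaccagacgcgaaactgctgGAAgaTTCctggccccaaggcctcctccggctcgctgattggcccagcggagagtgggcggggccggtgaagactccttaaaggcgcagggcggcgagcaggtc
Hspa1b: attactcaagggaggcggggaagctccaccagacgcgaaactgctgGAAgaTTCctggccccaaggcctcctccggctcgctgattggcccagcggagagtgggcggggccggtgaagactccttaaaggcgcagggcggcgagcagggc

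The element was searched on both strands as GAANNTTC, which reads the same on either, and was present in 7.86% of 32851 promoter windows and in 9.04% of 27025 genes with a window. Of 26 members with a window, 11 held it: Hspd1, Hspe1, Dnaja1, Hspb1, Hspb3, Hspb6, Hspb8, Hsph1, Bag3, Hspa1a and Hspa1b. The other 8 members had no window and were not searched for any element: Cryab, Hsf1, Hsp90aa1, Hsp90ab1, Hspa13, Hspa8, Hspa9 and Hspb2. The opposite arrangement, TTCNNGAA, was in 9.60% of genes and in 3 of the 26 members. The 3-unit element GAANNTTCNNGAA, or its complement TTCNNGAANNTTC, contains both shorter ones. It was in 0.603% of windows, 0.662% of genes and in 3 members, namely Hspd1, Hspe1 and Hsph1. Hspd1 and Hspe1 share the same site in overlapping windows, so it counts for both genes in each of these searches. The near-identical windows of Hspa1a and Hspa1b also count separately. A match describes letters in the window and is no evidence of binding.

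Both Hsp90 genes of the cytosol were lower in replicate 2. Hsp90ab1, the constitutive beta form, stood at 491 and 324 TPM, and Hsp90aa1, the inducible alpha form, at 140 and 89.3. Their log2 ratios were -0.52 ± 0.014 and -0.67 ± 0.040 (counting SE), the latter with an adjusted p of 4.53e-66 by the exact binomial test. On the spike-in scale Hsp90aa1 was at -1.11, past 2-fold. The beta gene led the alpha gene by 3.50 times in replicate 1 and 3.62 times in replicate 2. Counted on the full coding forms alone the lead was 18 and 21.9 times. For Hsp90ab1 the coding form of 2520 bases held 92.1% and 94.7% of TPM. For Hsp90aa1 a 711-base form with a truncated coding sequence held 81.9% and 84.1%, and the 3281-base coding form 17.9% and 15.6%. On counts the truncated form held 41.9% and 46.8%.

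The other Hsp70 relatives of the cytosol were split. Hspa4, an Hsp110-type exchange factor for Hsp70, stood at 41.4 and 61.8 TPM and was higher in replicate 2 (log2 ratio 0.58 ± 0.027, counting SE; adjusted p = 6.22e-102, exact binomial test). Its relatives Hsph1, at 15.2 and 19.9 TPM, and Hspa4l, at 5.15 and 6.93, were also higher, with log2 ratios of 0.20 and 0.32, though below 0 on the spike-in scale. All 3 genes of the Hsp110 type were therefore called higher in replicate 2 on scaled gene counts, as were 29.0% of all genes tested. Hspa4 alone of them was higher on the spike-in scale. For Hspa4l the 9479-base form, which held most of its counts, had a log2 ratio of only 0.18 ± 0.098 (counting SE). Hspa2, known for its role in the male germ line, stood at 31.9 and 30.6 TPM and was not called. Of the distant relatives, the endothelial gene Hspa12b stood at 17.6 and 20.8 TPM and was higher (log2 ratio 0.19, but -0.25 on the spike-in scale). Hspa12a stood at 14.2 and 13.4 and was not called.

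Of 4 cochaperones, 3 were lower in replicate 2 and none was higher, where 26.8% of all genes tested were lower and 29.0% higher. Bag3, an exchange factor that links Hsp70 to autophagy, stood at 69.4 and 60.1 TPM and was lower in replicate 2 (log2 ratio -0.16). Stip1, the adaptor that passes clients from Hsp70 to Hsp90, stood at 64.7 and 59.0 and was lower by a narrow margin (log2 ratio -0.08, adjusted p = 0.0394, exact binomial test; 0.0568 with DESeq2 size factors). The J-domain gene Dnajb1 stood at 60.9 and 56.4 TPM and was not called at a log2 ratio of -0.06. Dnaja1, another J-domain partner, was the least expressed cytosolic member at 3.19 and 2.10 TPM, and was lower in replicate 2 (log2 ratio -0.43). The ranges of Bag3, Stip1 and Dnajb1 over the 2 libraries overlapped. Hspa1a lay above Stip1 and Dnajb1 in both libraries.

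Among the other annotated forms of this group the short ones of Hspa4l changed places in TPM between the libraries. Its 1949-base form held 56.1% and 24.9% of TPM and its 1997-base form 11.6% and 48.5%, on 31.2 and 148 counts (log2 ratio 2.52 ± 0.28, counting SE). Most Hspa4l counts, 71.8% and 65.4%, lay in a 9479-base form that differed little (log2 ratio 0.18 ± 0.098, counting SE). That form held 32.3% and 26.6% of TPM. In Hsph1 the coding form of 3802 bases held 61.9% and 57.2% of TPM, and a form absent from the later annotation 34.9% and 25.7%. In Dnaja1 a coding form held 53.2% and 54.4% and a processed transcript 17.4% and 22.5%. With posterior mean TPM these shares fell to 39.05% and 37.95%, and to 13.85% and 16.37%. These forms of Hspa4l are absent from the later annotation, so its coding share was not computed. Hspa14, an atypical Hsp70 that sits at the ribosome, was read from 6 transcripts filed under an older identifier on chromosome 2 at 3488850 to 3512814. Their summed TPM was 22.2 and 15.0, of which coding forms held 15.4 and 10.04. Hspa14 enters none of the counts of members.

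Other cytosolic chaperones and cochaperones formed a list of 26, of which 11 were higher in replicate 2, 3 lower and 12 not called. Of all genes tested, 29.0% were higher and 26.8% lower, and of those with a mean count of 1000 or more 40.5% and 33.6%. On the spike-in scale 1 of the 26 was higher and 20 lower. On the longest coding forms, of 24 tested, 7 were higher and 5 lower. The highest were Bag6, which guards newly made tail-anchored proteins, at 370 and 359 TPM, Bag1, an Hsp70 exchange factor, at 246 and 404, and Fkbp4, an Hsp90 partner in steroid receptor complexes, at 200 and 265. The longest coding forms of Bag6 held 27.7% and 26.1% of its TPM. That of Bag1 had 0 counts in both libraries, so for Bag1 this measure leaves out all its reads. None of the 26 was over 2-fold apart on gene counts, but the longest coding form of Ptges3 was, at a log2 ratio of -1.14. The list's median was 28.4 TPM, under the 58.6 of the cytosolic members.

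Of the 4 mitochondrial chaperones, 3 were higher in replicate 2 and 1 lower, with a median of 33.7 TPM. The shares over all genes tested were 29.0% and 26.8%. On the spike-in scale 2 of the 4 were higher and 2 lower. Trap1, the Hsp90 of mitochondria, was the most abundant at 100.8 and 122 TPM (log2 ratio 0.17, -0.26 on the spike-in scale). Hspa9, the mitochondrial Hsp70 that pulls proteins through the inner membrane, stood at 32.0 and 47.7 TPM (log2 ratio 0.62 ± 0.038, counting SE; adjusted p = 4.83e-59, exact binomial test). Hspa9 stayed above 0 on the spike-in scale, at 0.18.

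Hspd1 and Hspe1 encode Hsp60 and Hsp10, the barrel and the lid of the mitochondrial chaperonin. They lie head to head on chromosome 1, where their outermost annotated starts overlap by 112 bases, and they differed in sign between the libraries. Hspd1 stood at 23.3 and 20.4 TPM and was lower in replicate 2 (log2 ratio -0.15, adjusted p = 0.0268, exact binomial test). Hspe1 stood at 21.4 and 33.8 and was higher (log2 ratio 0.77 ± 0.10, counting SE; adjusted p = 8.91e-14, exact binomial test). Hspd1 was thus 1.09 times Hspe1 in replicate 1 and 0.604 times in replicate 2. The split also held for the coding forms, at log2 ratios of -0.16 and 0.69. Hspe1 rests on only 358 and 495 counts. A retained-intron form held 10.6% and 14.2% of its TPM, and a shorter coding form of Hspd1 held 16.0% and 16.9%.

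The RefSeq windows of the pair overlap, and the bases between the 2 RefSeq starts hold the 3-unit heat shock element. They are shown for that reason, as the 150 bases before the start of Hspe1 on the plus strand, chr1:55087998-55088147. The capitals mark 4 units that form 2 overlapping matches of the 3-unit element, with first bases at -89 and -84 from the start of Hspe1.
Hspe1: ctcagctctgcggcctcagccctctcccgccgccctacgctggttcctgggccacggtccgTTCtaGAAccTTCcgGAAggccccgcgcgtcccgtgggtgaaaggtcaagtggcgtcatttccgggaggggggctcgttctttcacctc

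The other mitochondrial folding and protease genes were 10, with 3 higher in replicate 2, 2 lower and 5 not called. The shares over all genes tested were 29.0% higher and 26.8% lower. On the spike-in scale 1 of the 10 was higher and 8 lower. Clpp, the proteolytic core of the ClpXP protease, led at 244 and 217 TPM, followed by the protease Lonp1 at 207 and 236 and the import motor gene Dnajc19 at 75.9 and 104. Lonp1 and Dnajc19 were higher in replicate 2 and Clpp was lower.

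In the endoplasmic reticulum 2 of 5 members were higher in replicate 2, 2 lower and 1 not called, and on the spike-in scale 2 were higher and 2 lower. The shares over all genes tested on scaled counts were 29.0% higher and 26.8% lower. Hspa5, which encodes BiP, the Hsp70 of this compartment and a regulator of the unfolded protein response, stood at 1038 TPM in replicate 1 and 2481 in replicate 2. It lies on chromosome 2 at 34771970 to 34777547 and was the 54th most abundant protein-coding gene. On TPM the libraries were more than 2-fold apart, with a difference of 1.26 in log2(TPM + 1). On counts, at 18560 and 24766, the log2 ratio was 0.72 ± 0.014 (counting SE), and 10.1% of all genes tested were at least as far apart.

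As the authors divided the reads among forms, a short form of Hspa5 was higher in replicate 2 and the coding message was not. The short form lies inside the span of the coding form, and that division was not tested. A 477-base transcript of 4 exons, annotated for nonsense-mediated decay, held 83.2% of the gene's TPM in replicate 1 and 93.5% in replicate 2. It held 6372 and 15499 counts, a log2 ratio of 1.58 ± 0.021 (counting SE). The 2613-base coding form of 8 exons held 11548 and 8791 counts. All forms with the full coding sequence together gave 170 and 153 TPM, 16.3% and 6.16% of the gene's TPM, and were lower in replicate 2 (log2 ratio -0.11, adjusted p = 3.4e-07, exact binomial test). The gene as a whole was thus called higher and its coding message lower. The short form has an effective length of only 250 and 272 bases, so each count weighs heavily in its TPM. Hspa5 falls outside the rule for naming forms, since its second form held 5.99% in replicate 2, and was described after its values were seen.

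**Figure D3:**
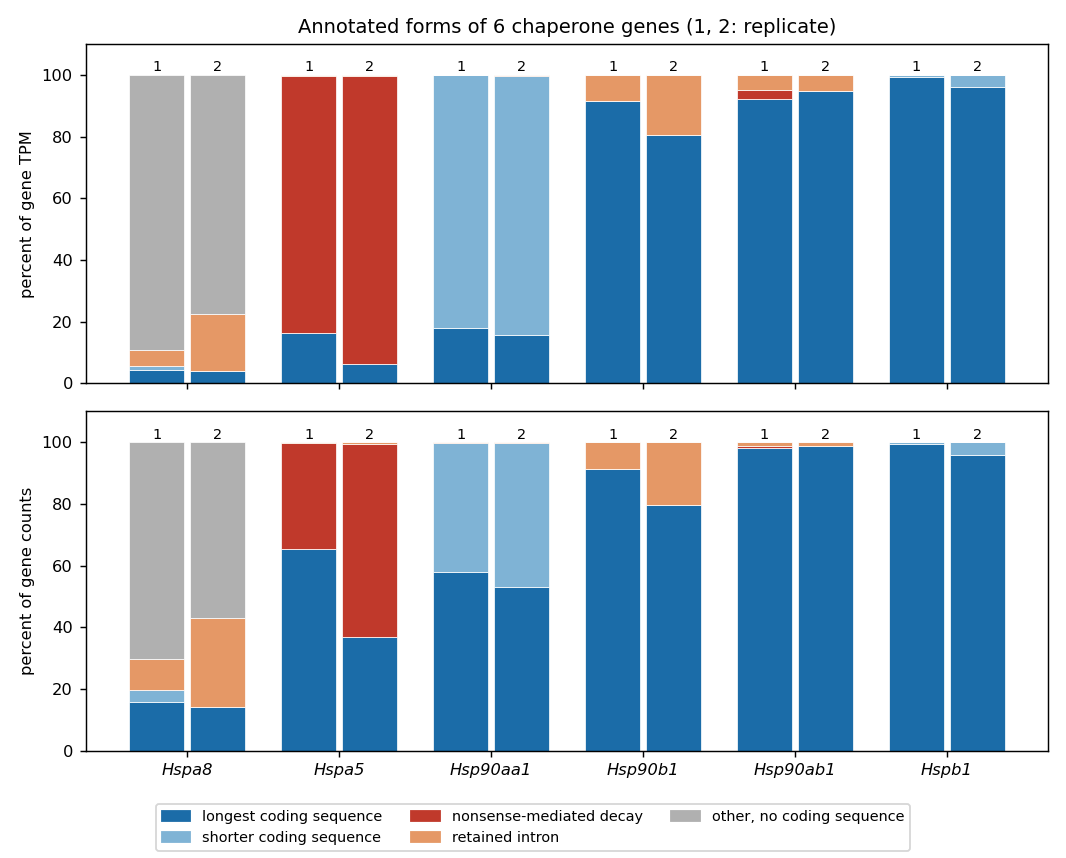
Percent of each gene's TPM (top) and of its counts (bottom) held by kinds of annotated transcript, for 6 chaperone genes in replicate 1 and replicate 2. Hspa8, Hspa5 and Hsp90aa1 have most of their TPM outside the longest coding sequence in both libraries; Hsp90ab1 and Hspb1 have over 92% inside it.

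Because Hspa8 and Hspa5 both carried short forms, their order depends on the measure. Hspa8 led Hspa5 by 2.92 times in replicate 1 and was at 0.989 times in replicate 2 on gene TPM. On the longest coding forms it stood at 0.764 and 0.649 times Hspa5. With all protein-coding forms of Hspa8 summed, at 169 and 99.5 TPM, it lay close to the 170 of Hspa5 in replicate 1.

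The remaining members of the compartment differed among themselves. Dnajc3, a J-domain partner of BiP, stood at 16.1 and 27.1 TPM and had the highest log2 ratio of all members, 0.79 ± 0.039 (counting SE; adjusted p = 1.52e-91, exact binomial test). It stayed at 0.35 on the spike-in scale. Hsp90b1, the Hsp90 of the compartment also called GRP94, stood at 46.9 and 36.5 TPM and was lower (log2 ratio -0.31, adjusted p = 3.79e-15, exact binomial test). A retained-intron form of Hsp90b1, part of which lies under an opposite-strand pseudogene with 46 and 19 counts, went from 7.35% to 17.6% of TPM, and the coding form alone had a log2 ratio of -0.51. Hspa13, a small Hsp70 relative, stood at 3.95 and 2.60 TPM and was lower as a gene (log2 ratio -0.46), but its longest coding form was not called (log2 ratio -0.02, adjusted p = 0.983, exact binomial). That form held 32.5% and 47.3% of its TPM. Dnajb9, a BiP cofactor induced by unfolded protein, stood at 1.82 and 2.28 TPM on 88 and 93 counts and was not called.

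Summed over the 5 members the compartment went from 1107 TPM to 2549, but on the longest coding forms from 232 to 213. The 477-base Hspa5 form alone went from 864 to 2319 TPM.

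Of the 26 members with a promoter window, Hspa5, Dnajc3 and Hsp90b1 held an endoplasmic reticulum stress element, and they are shown for that reason. Hspa13 had no window to search. On gene counts Hspa5 and Dnajc3 were higher in replicate 2 and Hsp90b1 lower. On the longest coding forms their log2 ratios were -0.11, 0.79 and -0.51. The part of the element in these differences was not tested. The element was searched as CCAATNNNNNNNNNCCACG or its complement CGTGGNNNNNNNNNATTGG, and 0.119% of windows and 0.137% of genes hold it. Capitals mark its fixed letters. The stretches lie at chr2:34771940-34772089 (plus strand), chr14:118937782-118937931 (plus) and chr10:86705445-86705674 (minus) of GRCm38.p6, from RefSeq. First bases are at -65 in Hspa5, at -105 in Dnajc3, and at -212 and -107 in Hsp90b1, where the second match is on the other strand.
Hspa5: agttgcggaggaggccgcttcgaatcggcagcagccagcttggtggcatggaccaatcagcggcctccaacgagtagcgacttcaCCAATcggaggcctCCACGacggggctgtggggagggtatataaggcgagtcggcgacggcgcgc
Dnajc3: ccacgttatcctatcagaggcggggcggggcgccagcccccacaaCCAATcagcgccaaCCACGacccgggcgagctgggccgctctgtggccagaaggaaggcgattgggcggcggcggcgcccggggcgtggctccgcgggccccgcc
Hsp90b1: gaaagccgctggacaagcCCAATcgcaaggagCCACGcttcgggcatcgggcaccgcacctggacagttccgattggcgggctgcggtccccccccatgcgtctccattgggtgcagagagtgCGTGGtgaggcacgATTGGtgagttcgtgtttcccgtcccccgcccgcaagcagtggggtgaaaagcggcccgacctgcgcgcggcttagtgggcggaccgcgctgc

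Of the wider set of folding and stress genes of the compartment, 14 of 21 were higher in replicate 2 on scaled counts, 3 lower and 4 not called. Over all genes tested 29.0% were higher and 26.8% lower. Where the mean count was 1000 or more, these shares were 40.5% and 33.6%. On the longest coding forms 10 of the 21 were higher and 7 lower, and on the spike-in scale 5 and 14. The median log2 ratio was 0.12 on scaled counts and -0.31 on the spike-in scale. These were abundant genes, with a median of 107 TPM. Pdia3, a disulfide isomerase of glycoproteins, led at 1929 and 3322 TPM, then the collagen chaperone Serpinh1 at 875 and 920 and the disulfide isomerase P4hb at 329 and 339. Manf, a secreted protein released under stress of this compartment, was the only gene of the list over 2-fold apart, at 12.8 and 28.1 TPM (log2 ratio 1.26 ± 0.066, counting SE). In Pdia3, Herpud1 and Ern1 the gene was called higher and the longest coding form lower: log2 ratios were 0.47 and -0.54 in Pdia3, 0.16 and -1.21 in Herpud1, and 0.08 and -0.24 in Ern1. They were singled out after their values were seen, as were Xbp1, the spliced transcription factor of the response, at 90.7 and 162 TPM, and Atf4, at 220 and 141. Calr, Canx, Pdia6 and Creld2 also hold the stress element, and of these Creld2 was higher, Calr and Canx lower and Pdia6 not called.

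**Figure D4:**
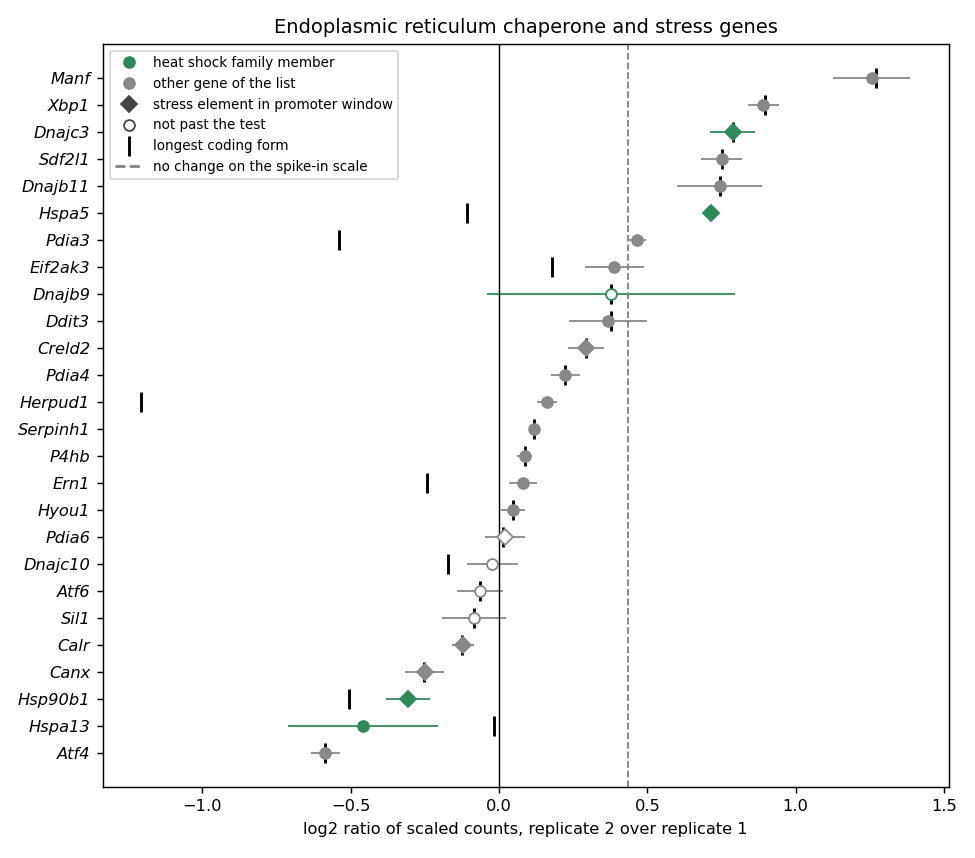
Log2 ratio of scaled counts, replicate 2 over replicate 1, for the 5 members (green) and 21 other genes (grey) of the endoplasmic reticulum. Diamonds hold the stress element in their promoter window, open symbols did not pass the exact binomial test, bars are 95% counting intervals and black bars mark the longest coding form. Diamonds lie on both sides of 0, from -0.31 for Hsp90b1 to 0.79 for Dnajc3. Circles include genes without a window, such as Hspa13.

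Small heat shock proteins hold unfolding proteins without ATP, and several are best known from muscle. Of 7, 6 were measured above 1 TPM, with 2 higher in replicate 2, 3 lower and 1 not called. The shares over all genes tested were 29.0% higher and 26.8% lower. On the spike-in scale 0 of the 6 were higher and 6 lower. Hspb1, which encodes Hsp27 and binds actin, stood at 461 and 516 TPM and held most of the group's sum of 666 and 686. It was higher in replicate 2 on scaled counts (log2 ratio 0.24 ± 0.021, counting SE; adjusted p = 5.93e-29, exact binomial test) and at -0.19 on the spike-in scale. Its coding form held 99.3% and 96.2% of TPM, so gene and message levels were alike. Hspb1 and Hsp90ab1 had overlapping ranges over the 2 libraries, and their order was not the same in both.

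The promoter stretch of Hspb1 is shown because it carries a pair of separate 2-unit heat shock elements, in capitals, with first bases at -117 and -97. It lies on the plus strand at chr5:135887769-135887918.
Hspb1: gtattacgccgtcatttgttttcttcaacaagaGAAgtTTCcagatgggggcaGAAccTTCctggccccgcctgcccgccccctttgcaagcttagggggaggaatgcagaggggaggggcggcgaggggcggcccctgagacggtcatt

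The lens and muscle gene Cryab stood at 67.7 and 44.6 TPM and was lower in replicate 2 (log2 ratio -0.54 ± 0.055, counting SE; adjusted p = 4.85e-22, exact binomial test). Its neighbour Hspb2, on the other strand of chromosome 9, stood at 22.4 and 16.9 TPM and was also lower (log2 ratio -0.32, adjusted p = 0.0118, exact binomial). Cryab was 3.03 and 2.64 times Hspb2. The annotated spans of the pair overlap by 1030 bases, but the forms that held all their counts do not overlap. Both genes of this pair were lower in replicate 2, unlike Hspd1 and Hspe1.

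Hspb8, the partner of Bag3 in selective autophagy, was the steadiest of the group at 61.1 and 59.9 TPM, and was not called. Hspb6, found in smooth muscle, stood at 39.8 and 33.4 TPM and was lower (log2 ratio -0.18). A processed transcript held 13.7% and 14.6% of its TPM. Hspb7, a heart and muscle gene, stood at 14.3 and 15.3 TPM and was higher by a narrow margin (log2 ratio 0.14, adjusted p = 0.0464, exact binomial). The call was lost with library totals (log2 ratio 0.08, adjusted p = 0.290, exact binomial), and the ratio was -0.29 on the spike-in scale. Hspb3, a muscle gene, had 0 counts in both libraries.

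Muscle markers were measured beside these genes. All 8 smooth muscle markers were detected, with summed TPM of 4465 and 4057, 3 of them higher in replicate 2 and 3 lower. The shares over all genes tested were 29.0% and 26.8%. On the spike-in scale 0 of the 8 were higher and 8 lower. Of 10 striated muscle markers 5 reached 1 TPM in both libraries, with sums of 227 and 256, almost all of it from Tnni3 at 198 and 228. On the longest coding forms the sums were 40.4 and 37.0, with Tnni3 at 16.0 and 13.2. Ttn and Myh6 stayed under 0.2 TPM and Myl2 had 0 counts in both. The part of smooth muscle in the levels of the small heat shock proteins was not tested.

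The regulator Hsf1, the main activator of the heat shock response, stood at 106 and 82.4 TPM and was lower in replicate 2 (log2 ratio -0.31 ± 0.031, counting SE; adjusted p = 2.95e-23, exact binomial test). Hsf2, which acts in development and the germ line, stood at 3.63 and 3.82 TPM and was not called. Hsf1 was 29.2 times Hsf2 in replicate 1 and 21.6 times in replicate 2. Among 7 further genes of both families only Hsbp1, a binder of Hsf1, and Hsf4 could be tested. Hsbp1 stood at 48.8 and 39.0 TPM and was lower, and Hsf4 at 2.13 and 2.25 and was not called. The other 5, Hsf3, Hsf5, Hspb9, Hspb11 and the lens gene Cryaa, had too few counts to test.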

How the data were processed

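Members and gene lists were chosen with earlier results of these data known. Per the file headers and accompanying notes, tables were made per library on mm10 with GENCODE M4. Aligner and quantifier: not given in the sources used here. Per the file headers, values are expected counts (estimated read pairs), TPM, and each transcript's percent of its gene's TPM. Names, coordinates and coding lengths came from GENCODE M21 on the same build. Of 104 member transcripts, 14 were absent from M21. A gene with over 50% of its counts in absent forms got no coding share. Spike-in rows stayed out of library sizes.

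Expected counts were rounded, and a mean count of 20 was required. TMM scaling used edgeR 4.0.16 under R 4.3.3, and log2 ratios a prior count of 1. Since 1 library a side leaves edgeR's quasi-likelihood fit without residual degrees of freedom, each gene got an exact binomial test (two-sided), adjusted by Benjamini-Hochberg at 0.05. On counts simulated for 15939 genes with counting error alone it called 94% of 2-fold rises, 82% of falls to 0.5-fold and 0.044% of unchanged genes. Real libraries vary more: edgeR put their common coefficient of variation beyond counting at 0.203. The simulation therefore cannot give the rate of false calls in these data. Standard errors and floors cover counting error only. Alternatives were DESeq2 1.42.0 size factors, library and spike-in totals, other filters and posterior means. All members were named, plus the 3 highest genes of each further list and those over 2-fold apart. Forms were named if the second form held at least 10% in both libraries, for genes of mean count 100 or more. RefSeq promoter windows covered 26 members. Tables on mm9 were not used here.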

Additional observations from a re-analysis of the deposited data

How the results depend on the processing

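The number of members detected was 32 with either replicate alone, with posterior mean TPM and at a minimum of 0.5 TPM, 28 at a minimum of 5 TPM, and 31 on the longest coding forms. The median TPM of members was 39.8; it was 36.5 to 39.8 with 1 replicate left out and 33.7 on the longest coding forms, a measure added after the data were seen. Spike-in totals moved the most: 5 members were higher in replicate 2 and 25 lower, where all genes tested gave 1136 and 11384 in place of 4616 and 4278, and 1 member, Hsp90aa1, was over 2-fold apart. On the difference of log2(TPM + 1), 1 member, Hspa5, was over 2-fold apart. Bonferroni adjustment left 9 higher and 7 lower. The median log2 ratio of 0.0064 lay so near 0 that its sign changed: -0.057 with library totals, -0.43 with spike-in totals, -0.020 at a mean count minimum of 100, -0.0025 with no filter, -0.044 on log2(TPM + 1) and -0.018 on the longest coding forms. Among single members, spike-in totals turned 11 of 32 ratios below 0: Hspa1a (-0.29), Hspa1b (-0.13), Hspa4l (-0.11), Hsph1 (-0.24), Hspa12b (-0.25), Trap1 (-0.26), Dnajb9 (-0.056), Hspb1 (-0.19), Hspb7 (-0.29), Hspb8 (-0.41) and Hsf2 (-0.31). Library totals turned Hspb8 to -0.038, and the longest coding forms turned Hspa5 to -0.11. With library totals all genes tested gave 3742 higher and 5493 lower and members 12 and 15; Hspa12a and Dnajb1 were then called lower (adjusted p 0.0310 and 0.00121, exact binomial) and Hspb7 was no longer called. The cause of these changes was not tested. With 1 library on each side no replicate could be left out of a ratio. Hspe1, Dnajb9, Hsf2, Hspb2, Hspa13 and Dnaja1 rest on under 500 counts a library, which limits their ratios.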

Other observations

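The TRiC chaperonin, which folds actin and tubulin, and its helper prefoldin were measured as 14 genes with a median of 44.8 TPM, near that of the heat shock members. On scaled counts 3 were higher in replicate 2, 6 lower and 5 not called, where 29.0% of all genes tested were higher and 26.8% lower. On the spike-in scale 2 of the 14 were higher and 9 lower. On the longest coding forms, of 11 tested, 3 were higher and 8 lower. The 3 highest were subunits of TRiC. Cct4 stood at 153 TPM in replicate 1 and 378 in replicate 2, Cct3 at 201 and 177, and Cct5 at 147 and 134. Subunits are present once in each ring of the complex, and their gene TPM ranged widely: Cct8 stood at 13.0 and 16.1. Cct4 had the highest log2 ratio of the list, 0.77, but its longest coding form stood at 15.2 and 9.63 TPM with a log2 ratio of -0.61. The gene and the coding form thus parted in sign, as they did in Hspa5, Pdia3, Herpud1 and Ern1. The same held for the cochaperone genes Ptges3, at log2 ratios of 0.31 and -1.14, and Bag6, at 0.048 and -0.085. These are examples and not a full list. These cases were picked after their values were seen, and their cause was not tested.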
